A study of Mus musculus with 18 samples.

Results

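Heat shock proteins and their co-chaperones were followed through the hearts of mice given angiotensin II (AngII) with or without ethoxysanguinarine (ETH). The members are all genes whose symbol begins with Hspa, Hspb, Hspd, Hspe or Hsph and a digit, with Hsp90 or with Dnaj, together with Bag1 to Bag6 and Cryab. They number 73 of the 13592 genes found in either of the transcript lists of the deposited files. In all 18 libraries 71 are listed, and all 71 passed the filter on low values. Dnajb3 and Dnajc4 are listed only for AngII and saline. By annotation 71 of the 73 are protein coding and 2, Dnajc19-ps and Hspd1-ps3, are processed pseudogenes. The members were chosen by name, and no measured value entered the rule.

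The series compared cardiac RNA after AngII with ETH, after AngII and after saline, with 6 libraries per group, to find genes whose expression differed. AngII is a peptide hormone that raises blood pressure, and ETH is a plant benzophenanthridine alkaloid. All mice were wild type (WT), of the C57BL/6 strain by the series title, and were treated for 28 days. AngII was given at 500 ng per kg per min in both AngII groups, and ETH at 10 mg per kg per day. The age of the mice and the part of the heart taken are not among the details used here. Whether each library is a separate mouse is not stated, and the p-values then describe the spread between these libraries only, which may be technical.

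Heat shock proteins are molecular chaperones that bind unfolded or damaged proteins. Small heat shock proteins hold such proteins in a form that can be refolded, HSP70 and HSP90 refold or mature them with energy from ATP, and the HSP60 chaperonin with its HSP10 lid does so inside mitochondria. DnaJ proteins bring substrates to HSP70, HSP110 and BAG proteins release the nucleotide it holds, and heat shock factor 1 drives the inducible genes. Heart muscle is rich in small heat shock proteins, which bind desmin, filamin and titin in the sarcomere.

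The values are FPKM, a level per length of transcript, scaled to the size of the library. This unit was inferred, and TPM of an incomplete list could not be told apart from it. The depth behind each value is unknown, so no counting interval is given. Libraries differed in chamber and adipose markers within the groups. Myl7, the atrial myosin light chain gene, was listed at 0 in AngII+ETH replicate 4, AngII replicate 3 and saline replicate 5. Myl2, the ventricular light chain gene, was 3.37 FPKM in AngII replicate 5 and 3.77 in saline replicate 6. Both were above 10 FPKM in the other 13 libraries. Adipoq, an adipocyte hormone gene, was highest in saline replicates 6 and 4. The cardiac troponin gene Tnnt2 was at 656 to 2032 FPKM in AngII+ETH, 531 to 1692 in AngII and 138 to 1192 in saline, while titin, Ttn, reached at most 12.9 FPKM in any library. The transcript list of the AngII+ETH files is not that of the AngII and saline files, so processing and ETH cannot be told apart.

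With limma, no member passed an adjusted p under 0.05 in any of the comparisons, which cover 11703 genes. AngII was set against saline to ask what the infusion changed. Here 0 of 71 members passed, against 0.00854% of all tested genes, and the smallest adjusted p of a member was 0.347. At an unadjusted p under 0.05, 12 members lay higher in AngII and 4 lower, against 3.28% and 5.78% of all tested genes. With AngII in the numerator 41 members had a log2 fold change above 0 and 30 below, with a median of 0.08, beside 39.2% above 0, 60.8% below and a median of -0.06 over all tested genes. After median-of-ratios scaling the members split 14 higher and 4 lower and all genes 538 and 596, against 384 and 676 without it. After quantile normalization the members split 16 and 3 and all genes 625 and 529.

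AngII+ETH was set against AngII to ask what the alkaloid changed in mice given the hormone. Again 0 members passed, against 0% of all tested genes, and none had an unadjusted p under 0.05, against 1.26% of all tested genes that were higher at that level and 0.649% that were lower. Of the members 26 had a log2 fold change above 0 and 45 below, with a median of -0.03, beside 56.8% above 0, 43.2% below and a median of 0.02 over all genes. Without the 5 libraries with a chamber marker under 10 FPKM the members split 37 above and 34 below (median 0.004), and without AngII replicate 5 they split 33 and 38 (median -0.008). No member separated these groups without overlap, against 0.0342% of all tested genes that did so higher and 0.0171% lower. AngII+ETH was set against saline to see the distance from hearts given neither agent. In it 0 members passed, against 0.00854%, with a smallest adjusted p of 0.298. At an unadjusted p under 0.05, 9 lay higher and 2 lower, against 3.5% and 4.01% of all tested genes. Here 38 members were above 0 and 33 below, with a median of 0.03, beside 43.7% above 0, 56.3% below and a median of -0.03 over all genes. The split turned to 31 above and 40 below without saline replicate 5 (median -0.05), 28 and 43 without AngII+ETH replicate 5 (median -0.06) and 35 and 36 without AngII+ETH replicate 3 (median -0.01). In both comparisons the splits with libraries left out are given for members only. A shift of all genes in those settings is therefore not told apart from one of the members. The comparisons share groups, so likeness between them is no independent result. Together the members held 1.15 ± 0.0729% of the summed gene FPKM in AngII+ETH, 1.20 ± 0.133% in AngII and 0.948 ± 0.135% in saline (SD, n = 6 each).

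**Figure D1:**
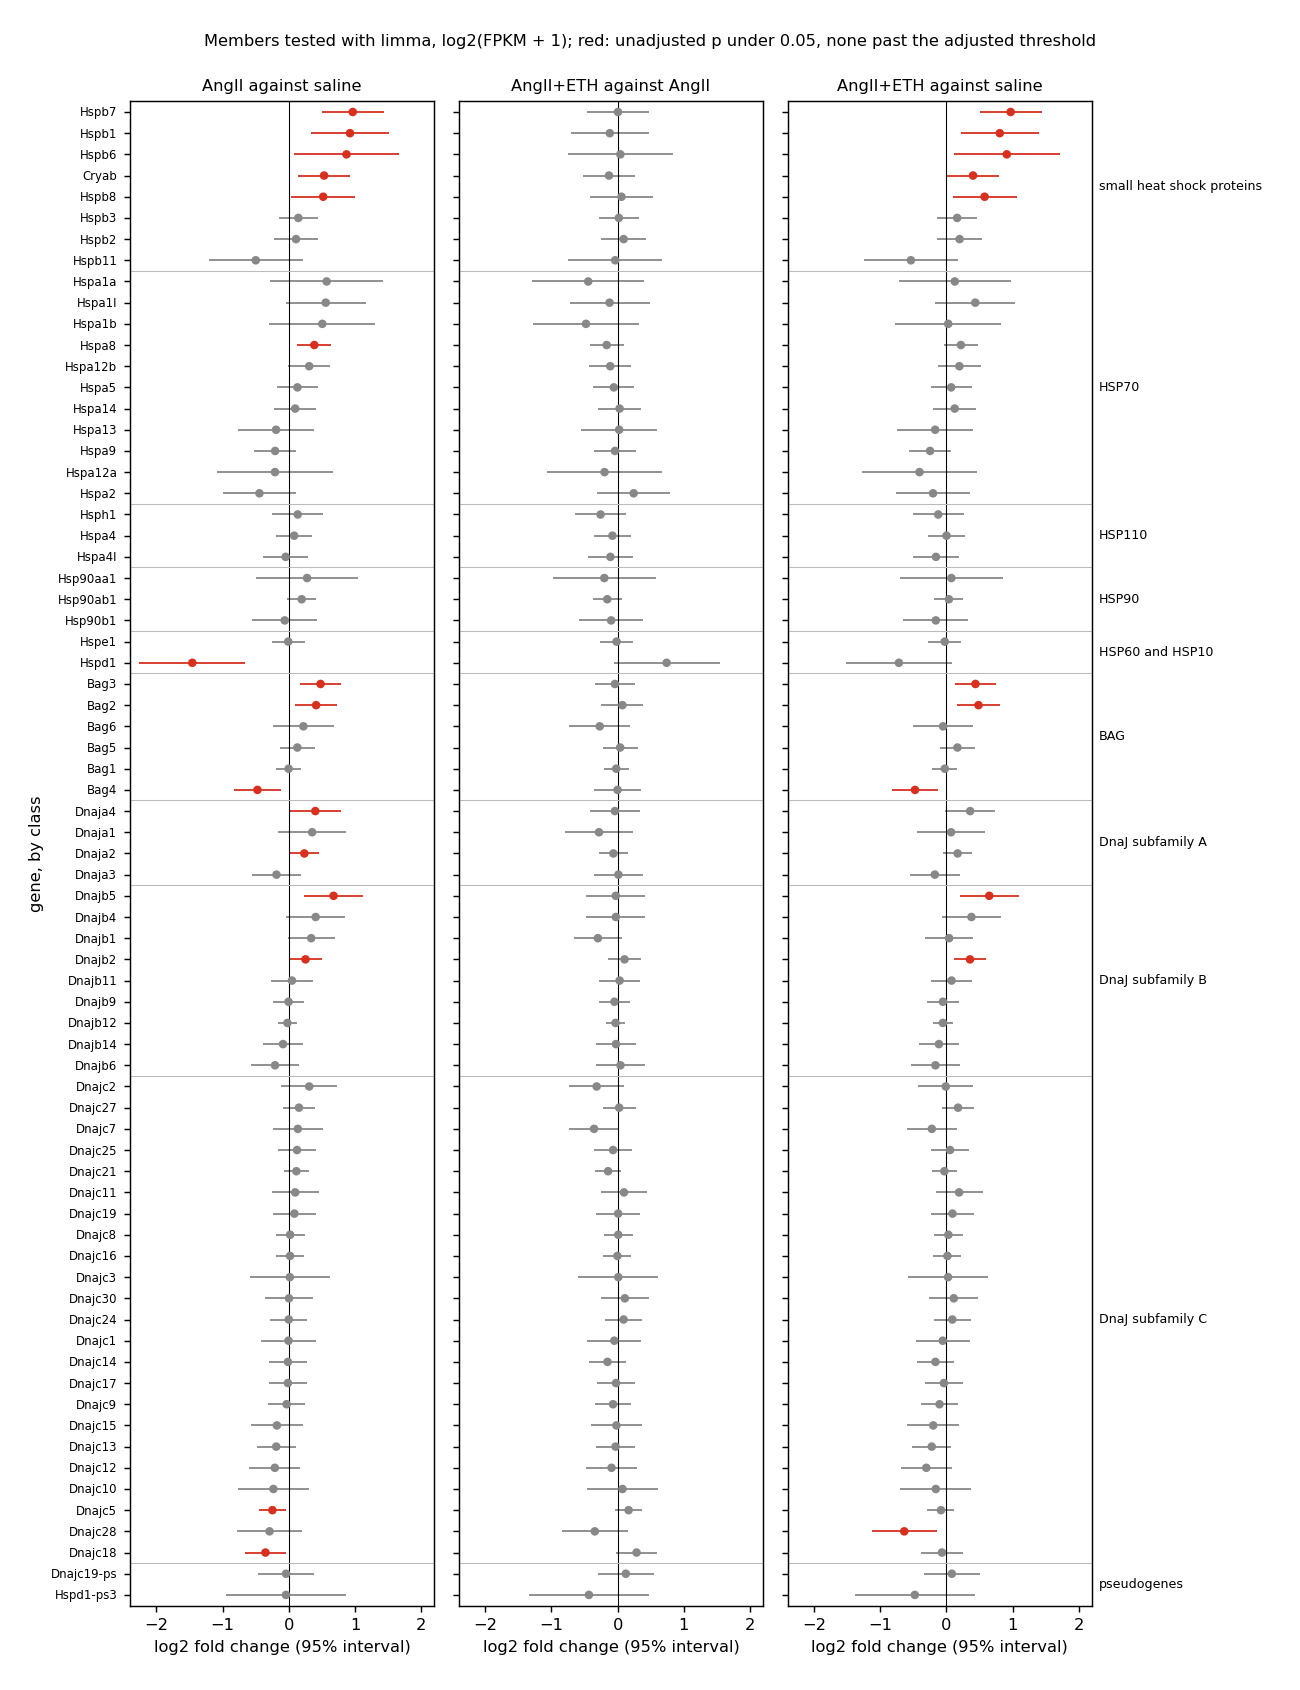
Log2 fold change on the log2(FPKM + 1) scale with its 95% interval (horizontal axis) for each of the 71 members tested (vertical axis, by class), in 3 panels: AngII against saline (left), AngII+ETH against AngII (middle) and against saline (right). Red marks an unadjusted limma p under 0.05, which 16, 0 and 11 members had, and no member passed the adjusted threshold.

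Small heat shock proteins were the most abundant class, with Cryab at a mean of 855 FPKM over all libraries, Hspb7 at 528 and Hspb6 at 467. Of their 8 members 7 had a log2 fold change above 0 in AngII against saline, with a median of 0.53, and 5 had an unadjusted p under 0.05, but none passed the adjusted threshold. Their summed level was 2630 ± 237 FPKM in AngII+ETH, 2747 ± 409 in AngII and 1751 ± 669 in saline (SD, n = 6 each). It was highest among saline libraries in replicate 5, at 2854 FPKM, and lowest in replicates 6 and 4, at 984.3 and 1175 FPKM. In bulk tissue fewer cells of a type and less RNA per cell cannot be told apart.

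Hspb7, a small heat shock protein of heart and skeletal muscle that binds filamin C, was 567, 600 and 706 FPKM in AngII+ETH (lowest, median and highest), 456, 670 and 749 in AngII and 172, 341 and 565 in saline. Every AngII+ETH library lay above every saline library, while 2 AngII libraries lay below the highest saline one, replicate 5. On the log2 scale its fold change was 0.97 (SE 0.222, limma adjusted p = 0.347) in AngII against saline and again 0.97 (limma adjusted p = 0.298) in AngII+ETH against saline. Without saline replicate 5, which had Myl7 at 0, it passed in both, at 1.13 (limma adjusted p = 0.0356) and 1.14 (limma adjusted p = 0.0328). Over all genes 11 and 8 passed in that setting, against 1 and 1 with all libraries. AngII replicate 3 and AngII+ETH replicate 4, also with Myl7 at 0, stayed in, so the groups were then unlike in this marker. Without saline replicates 4 and 6 the Hspb7 fold change was 0.63 in each. With the chamber and adipocyte levels both as covariates it was 0.53 in AngII against saline and 0.67 in AngII+ETH against saline.

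Hspb1, the stress-inducible small heat shock protein that binds actin filaments, was 173, 290 and 423 FPKM in AngII+ETH, 197, 273 and 759 in AngII and 135, 158 and 191 in saline. Every AngII library lay above every saline library, which held for 1 of 71 members and for 0.162% of all tested genes. No member lay wholly below saline in AngII, against 0.197%. The AngII+ETH libraries overlapped both other groups, and AngII replicate 5 stood far above the rest. The log2 fold change was 0.92 (SE 0.279, limma adjusted p = 0.486) in AngII against saline and 0.81 (SE 0.279, limma adjusted p = 0.519) in AngII+ETH against saline. Without AngII replicate 5 the AngII value was 0.66.

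Cryab encodes alpha-B-crystallin, which binds desmin and titin. It was 797, 874 and 1045 FPKM in AngII+ETH, 775, 990 and 1096 in AngII and 400, 715 and 1054 in saline. The groups overlapped, with saline replicate 5 among the high libraries and saline replicates 6 and 4 lowest of all. Its log2 fold change was 0.53 (SE 0.187, limma adjusted p = 0.488) in AngII against saline and 0.40 in AngII+ETH against saline. Without saline replicates 4 and 6 these were 0.24 and 0.11, and with the chamber and adipocyte levels as covariates 0.088 and 0.11. Without saline replicate 6 alone the second was 0.25.

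Hspb6, a small heat shock protein of muscle that is phosphorylated by protein kinase A, was 332, 500 and 835 FPKM in AngII+ETH, 269, 519 and 805 in AngII and 110, 281 and 750 in saline. The highest library of every group was the one with Myl7 at 0, and the lowest AngII and saline libraries were those with Myl2 under 10 FPKM. Log2 fold changes were 0.87 (SE 0.379) in AngII against saline and 0.91 (SE 0.379) in AngII+ETH against saline, with limma adjusted p = 0.531 and 0.594. Hspb8, the partner of Bag3 in the clearance of damaged filamin, was 164, 188 and 256 FPKM in AngII+ETH, 130, 196 and 270 in AngII and 82.2, 149 and 221 in saline. AngII replicate 3 and saline replicate 5, with Myl7 at 0, were the highest of their groups, and AngII replicate 5 and saline replicate 6 the lowest. The Hspb8 log2 fold changes were 0.52 in AngII and 0.58 in AngII+ETH against saline. Without saline replicates 4 and 6 Hspb6 was at 0.34 and 0.38 and Hspb8 at 0.19 and 0.25 in AngII and in AngII+ETH against saline. With both covariates Hspb6 was at 0.26 and 0.42 and Hspb8 at 0.15 and 0.29.

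Hspb2 and Hspb3, muscle proteins that assemble with each other, overlapped widely between groups. Hspb2 was 52.8, 76.6 and 88.5 FPKM in AngII+ETH, 49.6, 66.8 and 94.9 in AngII and 51.4, 60.7 and 87.1 in saline. Hspb3 was 5.71, 8.38 and 10.5 FPKM in AngII+ETH, 6.73, 7.77 and 11.03 in AngII and 5.73, 6.94 and 9.94 in saline. Hspb11, an intraflagellar transport subunit named as a small heat shock protein, was the only one of the 8 with a log2 fold change below 0 in AngII against saline.

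Markers of other cell types varied beside the small heat shock genes, and their part in these values was not tested. All 6 cardiomyocyte markers had a log2 fold change above 0 in AngII against saline (median 0.66, 1 with an unadjusted p under 0.05), and 5 of 6 in AngII+ETH against saline. Their summed level was 4722 to 10750 FPKM in AngII+ETH, 8992 to 10908 in AngII and 3279 to 10244 in saline. All 5 tested adipocyte markers were below 0 in AngII against saline (median -2.97, all 5 with an unadjusted p under 0.05) and in AngII+ETH against saline (median -1.74). Their summed level was 0 to 256 FPKM in AngII+ETH, 0.173 to 24.0 in AngII and 0.538 to 1130 in saline. Adipoq was at 0 in 1 AngII+ETH library and Plin1, a lipid droplet gene, in 2 AngII+ETH, 4 AngII and 1 saline library. Adipocyte markers lay at a level of 1.57 ± 1.25 log2 units in AngII+ETH, 0.522 ± 0.389 in AngII and 3.39 ± 2.496 in saline (SD, n = 6 each; AngII against saline by exact two-sided permutation, p = 0.0195, adjusted p = 0.117 over 6 tests). Of the other lists, all 4 ventricular markers (median 0.94) and all 6 endothelial markers (median 0.23) were above 0 in AngII against saline. All 5 neutrophil and mast cell markers were below 0 (median -1.004, 3 with an unadjusted p under 0.05), as were all 3 Schwann cell markers (median -1.07, 2 with such a p). Atrial, fibroblast and macrophage markers were above 0 in 1 of 5, 1 of 6 and 1 of 6 and smooth muscle markers in 1 of 6 (median -0.57). The 1 macrophage and the 1 smooth muscle marker above 0 had an unadjusted p under 0.05, and none of those below 0 had. Of 4 skeletal muscle markers only Ckm and Acta1 were listed, both above 0 (median 1.53), while Mylpf and Tnnc2 were not. Ckm was at 150 FPKM or more in every library, so these 2 do not mark skeletal muscle alone. Myh11, a smooth muscle myosin gene, was 10.4 to 62.6 FPKM in AngII+ETH, 8.86 to 12.9 in AngII, 130 and 113 in saline replicates 4 and 6 and 9.04 to 12.5 in the other saline libraries.

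**Figure D2:**
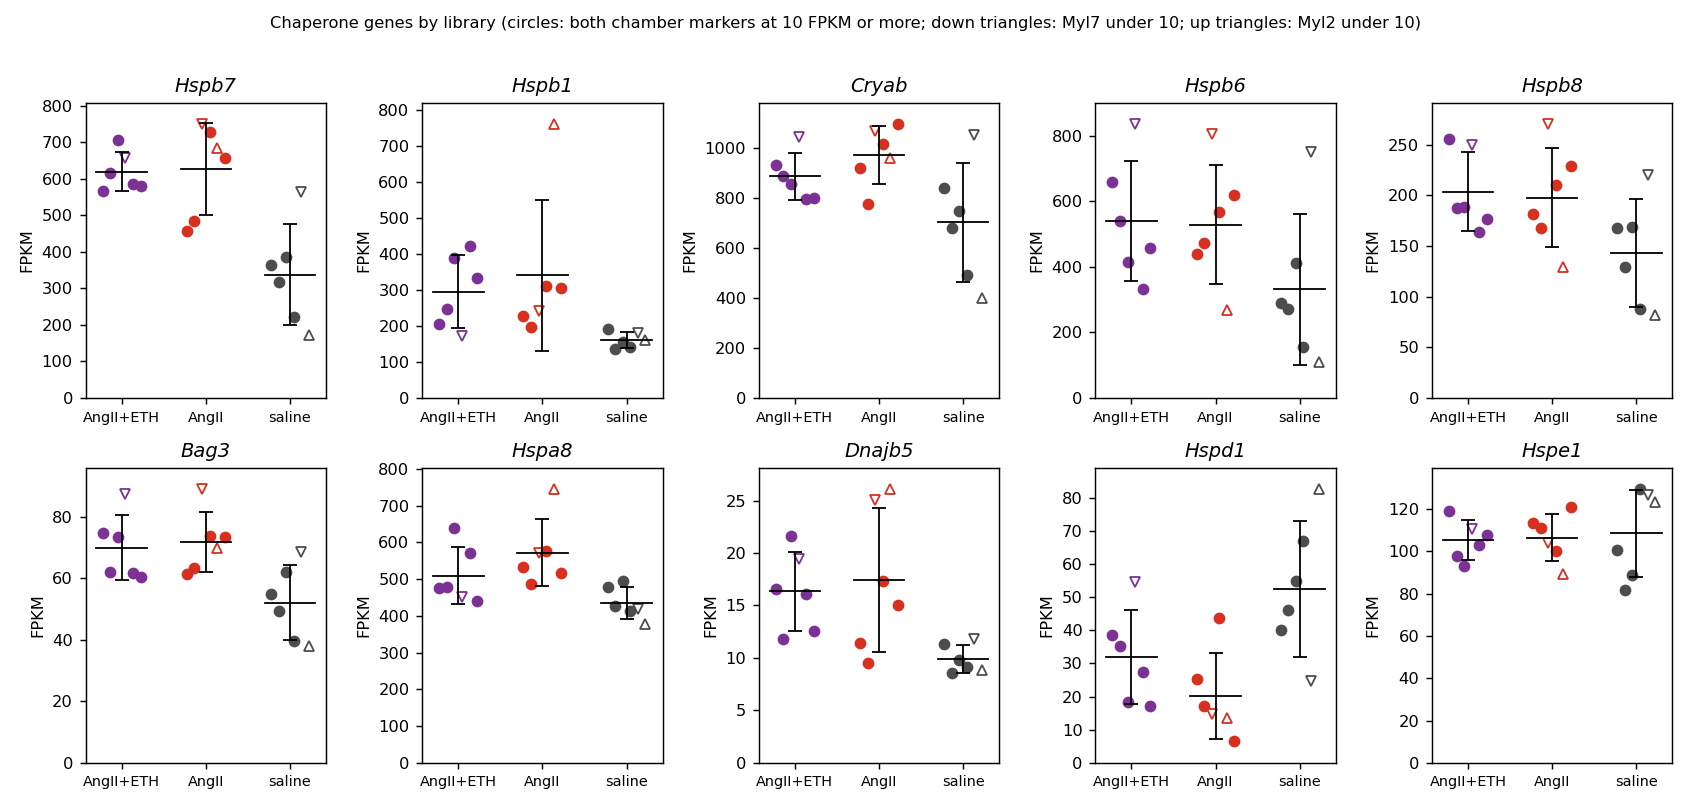
FPKM (vertical axis) of 10 chaperone genes in each library of AngII+ETH, AngII and saline (horizontal axis), with the mean and SD of 6 libraries per group in black; open triangles mark libraries with Myl7 (down) or Myl2 (up) under 10 FPKM. Hspb7 in saline lies at 172 to 565 FPKM, below the AngII+ETH libraries at 567 to 706, and the highest saline value is an open triangle.

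**Figure D3:**
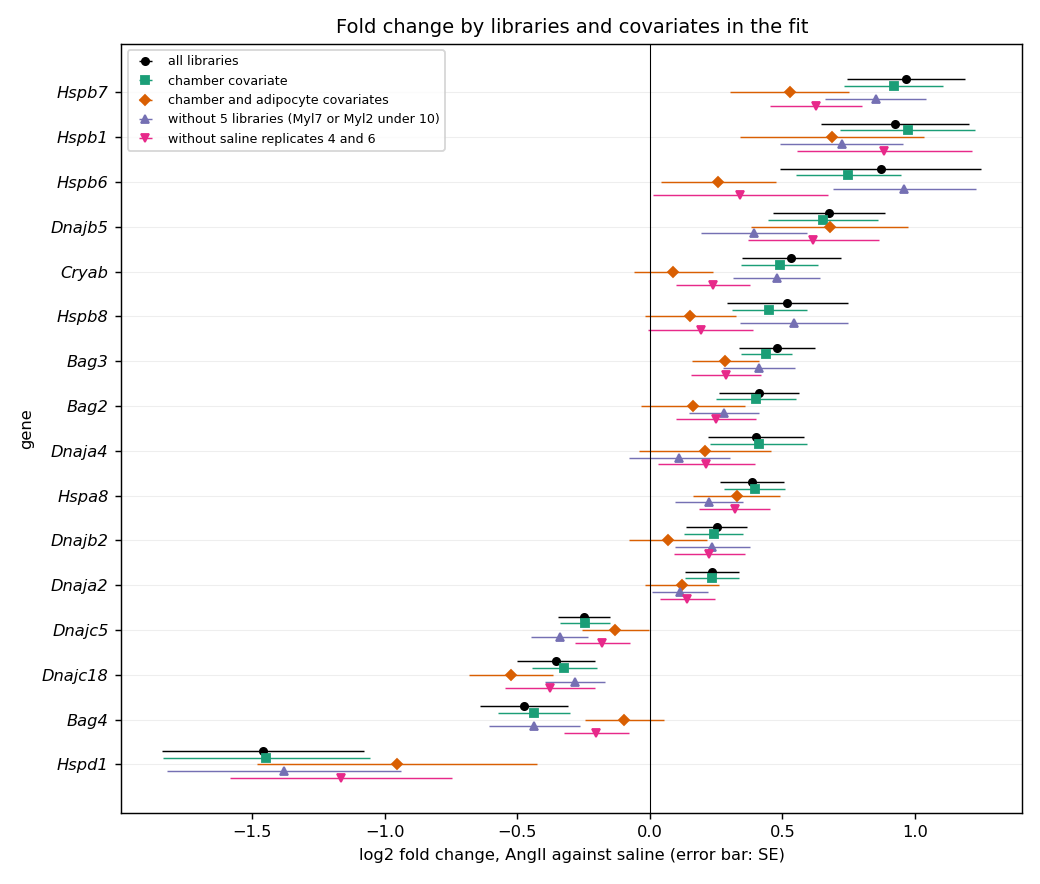
Log2 fold change of AngII against saline with its SE (horizontal axis) for the 16 members with an unadjusted p under 0.05 (vertical axis), with all libraries and under 4 other choices of libraries or covariates. Cryab, Hspb6 and Hspb8 move towards 0 without saline replicates 4 and 6 (0.24, 0.34 and 0.19), while Hspb1 stays at 0.88.

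To show what the promoters of these genes hold, the window before the start of 2 of them is printed from RefSeq, build GRCm38.p6, 5′ to 3′. Capitals mark GAANNTTC, a pair of units of the heat shock element bound by heat shock factor 1. The Hspb7 stretch, chr4:141420529-141420778 on the plus strand, has no such pair, and the Hspb1 stretch, chr5:135887669-135887918 on the plus strand, has 2, which begin 117 and 97 bases before the start.
Hspb7: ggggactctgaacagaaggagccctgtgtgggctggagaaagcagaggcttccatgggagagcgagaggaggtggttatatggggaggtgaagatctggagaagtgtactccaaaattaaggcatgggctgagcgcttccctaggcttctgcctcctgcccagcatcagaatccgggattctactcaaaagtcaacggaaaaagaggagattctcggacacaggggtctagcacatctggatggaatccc
Hspb1: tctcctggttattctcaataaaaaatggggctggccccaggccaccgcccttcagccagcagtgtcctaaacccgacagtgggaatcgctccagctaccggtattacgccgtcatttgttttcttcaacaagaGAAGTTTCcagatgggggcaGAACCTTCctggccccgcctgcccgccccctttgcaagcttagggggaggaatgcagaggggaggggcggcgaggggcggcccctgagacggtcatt

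The HSP70 class holds the general refolding chaperones, and 7 of its 11 members had a log2 fold change above 0 in AngII against saline, with a median of 0.13 and 1 unadjusted call. That one was Hspa8, the constitutive cytosolic HSP70 and the third most abundant member, at 442, 477 and 638 FPKM in AngII+ETH, 487, 552 and 744 in AngII and 378, 423 and 494 in saline. Only the lowest AngII library fell inside the saline range, while the AngII+ETH libraries overlapped both. The log2 fold change was 0.38 (SE 0.121, limma adjusted p = 0.486) in AngII against saline and 0.22 (SE 0.121) in AngII+ETH against saline. Without the 5 libraries with a chamber marker under 10 FPKM the AngII value was 0.22, and with array quality weights the values were 0.26 and 0.12.

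Hspa1a and Hspa1b, the stress-inducible HSP70 genes, are near-identical copies, so the split of reads between them is uncertain. Hspa1a was 2.05, 2.95 and 7.46 FPKM in AngII+ETH, 3.29, 3.99 and 14.2 in AngII and 0.831, 2.62 and 9.74 in saline. Hspa1b was 1.89, 3.31 and 5.91 FPKM in AngII+ETH, 3.47, 4.10 and 12.9 in AngII and 1.19, 2.78 and 10.4 in saline. For both genes the highest library was AngII replicate 5, followed by saline replicate 6, the libraries with Myl2 under 10 FPKM, and the lowest was saline replicate 5, with Myl7 at 0. The Hspa1a log2 fold change was 0.57 (SE 0.404) in AngII against saline and -0.44 (SE 0.404) in AngII+ETH against AngII. The first was 1.33 with both covariates, 1.10 without saline replicates 4 and 6, 0.35 without saline replicate 5 and 0.30 without AngII replicate 5. The second was -0.26 with quality weights, -0.17 without AngII replicate 5 and -0.041 without the 5 libraries with a chamber marker under 10 FPKM.

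The Hspa1a promoter is printed as the inducible member of the class, from RefSeq GRCm38.p6, chr17:34972157-34972406 on the minus strand. Capitals mark its GAANNTTC match, which begins 104 bases before the start.
Hspa1a: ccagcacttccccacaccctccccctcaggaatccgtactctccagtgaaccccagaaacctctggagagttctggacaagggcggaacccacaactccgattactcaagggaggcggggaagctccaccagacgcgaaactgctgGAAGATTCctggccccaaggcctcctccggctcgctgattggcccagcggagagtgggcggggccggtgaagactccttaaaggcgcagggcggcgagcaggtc

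Hspa5, the BiP chaperone of the endoplasmic reticulum, was 79.4, 94.8 and 163 FPKM in AngII+ETH, 97.4, 107 and 120 in AngII and 90.3, 97.5 and 107 in saline. Hspa9, the mitochondrial HSP70, was 122, 157 and 183 FPKM in AngII+ETH, 109, 172 and 187 in AngII and 150, 177 and 267 in saline. The groups overlapped for both genes. Hsph1, the inducible HSP110 that releases nucleotide from HSP70, was 6.05, 8.01 and 14.4 FPKM in AngII+ETH, 7.88, 10.3 and 13.3 in AngII and 7.50, 9.07 and 11.99 in saline. Of the 3 HSP110 members, 2 had a log2 fold change above 0 in AngII against saline and none in AngII+ETH against AngII. AngII replicate 5 was the highest AngII library for all 3.

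The HSP90 genes, whose products mature kinases and steroid receptors, overlapped between groups. Hsp90ab1, the constitutive cytosolic form, was 329, 380 and 447 FPKM in AngII+ETH, 378, 412 and 482 in AngII and 309, 382 and 421 in saline. The inducible form Hsp90aa1 was 13.7, 26.5 and 56.1 FPKM in AngII+ETH, 23.7, 26.0 and 74.1 in AngII and 11.1, 27.6 and 38.2 in saline. In each group its lowest library was the one with Myl7 at 0, though in AngII only by 23.74 against 23.95 FPKM in replicate 1. The highest AngII library was replicate 5, with Myl2 at 3.37 FPKM. The Hsp90aa1 log2 fold change in AngII against saline was 0.28 (SE 0.369) with all libraries and -0.11 without the 5 libraries with a chamber marker under 10 FPKM. It was 0.028 without AngII replicate 5, 0.051 without saline replicate 5 and 0.61 with both covariates. Hsp90b1, the form of the endoplasmic reticulum, was 40.1, 57.7 and 113 FPKM in AngII+ETH, 49.3, 63.6 and 103 in AngII and 50.8, 68.0 and 86.2 in saline. Processed copies of HSP90 and HSP70 genes elsewhere in the genome may share reads with these genes.

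The genes of the mitochondrial chaperonin gave unlike values, and the difference between them was not tested. Hspd1, which encodes HSP60, was 17.0, 31.4 and 54.7 FPKM in AngII+ETH, 6.48, 15.9 and 43.7 in AngII and 24.6, 50.5 and 82.5 in saline. Of the AngII libraries 4 lay below every saline library, while replicates 1 and 4 lay inside the saline range, and the AngII+ETH libraries spread over both. The log2 fold change was -1.46 (SE 0.381, limma adjusted p = 0.441) in AngII against saline, the value farthest from 0 of any member in that comparison. It was 0.74 (SE 0.381) in AngII+ETH against AngII and -0.72 (SE 0.381, limma adjusted p = 0.682) in AngII+ETH against saline. In AngII against saline it was -0.95 with chamber and adipocyte covariates, -1.16 without saline replicates 4 and 6 and -1.38 without the 5 libraries with a chamber marker under 10 FPKM. In AngII+ETH against AngII it was 0.43 without those 5 and 0.48 without AngII replicate 6, and in AngII+ETH against saline -0.43 with the covariates and -0.42 without saline replicates 4 and 6.

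Hspe1, the HSP10 lid of the same chaperonin, was 93.0, 105 and 119 FPKM in AngII+ETH, 89.5, 107 and 121 in AngII and 81.7, 112 and 129 in saline. The ranges of the groups lay almost on top of each other. Its log2 fold change in AngII against saline was -0.01 (SE 0.119, 95% interval -0.26 to 0.24). Nearly all of the Hspd1 level came from 1 transcript, and the Hspd1-ps3 copy, at 1.69 to 15.8 FPKM, may share reads with it.

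Hspd1 and Hspe1 lie head to head with a shared promoter, so that the same letters stand before both starts on opposite strands, and they are shown for that reason. The 30-base stretches are from RefSeq GRCm38.p6, Hspd1 at chr1:55088055-55088084 on the minus strand and Hspe1 at chr1:55088051-55088080 on the plus strand. Capitals mark the run of overlapping GAANNTTC and TTCNNGAA pairs, which begins 144 bases before the Hspd1 start and 89 bases before the Hspe1 start.
Hspd1: gcggggccTTCCGGAAGGTTCTAGAAcgga
Hspe1: acggtccgTTCTAGAACCTTCCGGAAggcc

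DnaJ proteins stimulate the ATPase of HSP70 and hand it substrates. In AngII against saline 3 of 4 subfamily A members, 5 of 9 subfamily B members and 11 of 23 subfamily C members had a log2 fold change above 0, with medians of 0.29, 0.05 and -0.001. Subfamily C had 16 of 23 above 0 after either other scaling, and subfamily B 7 of 9 after median-of-ratios scaling and 8 of 9 after quantile normalization. Dnajb5, a cytosolic DnaJ protein that binds a class II histone deacetylase in heart muscle, was 11.8, 16.3 and 21.6 FPKM in AngII+ETH, 9.52, 16.2 and 26.1 in AngII and 8.56, 9.47 and 11.8 in saline. Every AngII+ETH library lay above every saline one, but the lowest AngII+ETH and the highest saline value are equal to 3 digits. With Hspb7 it was 1 of 2 members so separated, against 0.359% of all tested genes, and no member lay wholly below saline, against 0.248%. The log2 fold change was 0.68 (SE 0.211, limma adjusted p = 0.486) in AngII against saline and 0.65 (SE 0.211, limma adjusted p = 0.490) in AngII+ETH against saline. Without the 5 libraries with a chamber marker under 10 FPKM these were 0.39 and 0.62.

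Dnajb1, the main stress-induced partner of HSP70, was 6.06, 7.08 and 7.93 FPKM in AngII+ETH, 5.63, 9.31 and 11.2 in AngII and 4.84, 6.85 and 10.95 in saline. All 6 AngII+ETH libraries lay inside the AngII range, and the log2 fold change of AngII+ETH against AngII was -0.30 (SE 0.170, limma adjusted p = 1.00). Dnajb4, a related cytosolic protein, was 18.6, 26.3 and 48.1 FPKM in AngII+ETH, 21.5, 27.6 and 50.9 in AngII and 19.3, 20.8 and 24.1 in saline. Its highest values, in AngII+ETH replicate 3 and AngII replicate 5, were about alike, and the saline libraries varied little.

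Among subfamily A, Dnaja1, a cytosolic partner of HSP70, was 6.42, 8.04 and 12.9 FPKM in AngII+ETH, 7.17, 9.97 and 16.8 in AngII and 4.21, 8.14 and 12.3 in saline. Dnaja2, of the same kind, was 54.1, 60.3 and 76.1 FPKM in AngII+ETH, 59.6, 63.4 and 79.1 in AngII and 43.7, 57.8 and 60.0 in saline, with a log2 fold change of 0.23 (SE 0.103) in AngII against saline. Dnaja4 was 36.4, 42.2 and 72.1 FPKM in AngII+ETH, 39.2, 45.9 and 65.0 in AngII and 24.5, 35.9 and 50.8 in saline, with 0.40 (SE 0.182). The groups overlapped for all 3 genes. Without the 5 libraries with a chamber marker under 10 FPKM both Dnaja2 and Dnaja4 were at 0.11, and with both covariates they were at 0.12 and 0.21.

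Dnajb2, which binds ubiquitinated clients, was 29.2, 33.6 and 34.3 FPKM in AngII+ETH, 26.7, 30.1 and 34.4 in AngII and 17.9, 25.7 and 31.4 in saline, with log2 fold changes of 0.25 (SE 0.115) in AngII and 0.36 (SE 0.115) in AngII+ETH against saline. Dnajc5, the cysteine string protein of secretory vesicles, was 10.9, 12.3 and 14.1 FPKM in AngII+ETH, 8.93, 11.1 and 12.6 in AngII and 11.3, 13.6 and 14.6 in saline. Dnajc18 was 5.10, 5.64 and 7.37 FPKM in AngII+ETH, 2.43, 4.93 and 6.21 in AngII and 5.21, 6.57 and 7.19 in saline. These 2 subfamily C members lay lower in AngII against saline, at log2 fold changes of -0.25 (SE 0.097) and -0.35 (SE 0.148). In that comparison Dnajb2 was at 0.16 without saline replicate 2 and 0.068 with both covariates, Dnajc5 at -0.13 with both covariates and Dnajc18 at -0.21 without AngII replicate 3. Dnajc28 was 2.1, 4.60 and 5.95 FPKM in AngII+ETH, 2.32, 6.31 and 9.07 in AngII and 5.53, 7.12 and 8.86 in saline, with -0.64 (SE 0.235, limma adjusted p = 0.521) in AngII+ETH against saline. None of these 4 passed the adjusted threshold, and their groups overlapped.

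BAG proteins release nucleotide from HSP70 and link it to other machinery, and 4 of the 6 genes had a log2 fold change above 0 in AngII against saline, with a median of 0.17 (5 after either scaling). Bag3, which joins HSP70 to Hspb8 and to autophagy in muscle, was 60.5, 67.7 and 87.5 FPKM in AngII+ETH, 61.5, 71.7 and 88.9 in AngII and 37.9, 52.1 and 68.6 in saline. The highest library of each group was the one with Myl7 at 0, and the lowest of all were saline replicates 6 and 4. The log2 fold change was 0.48 (SE 0.145, limma adjusted p = 0.486) in AngII against saline and 0.44 (SE 0.145, limma adjusted p = 0.494) in AngII+ETH against saline. Without saline replicates 4 and 6 these were 0.29 and 0.25, and with both covariates 0.28 in each.

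Bag2, an inhibitor of the ubiquitin ligase that works with HSP70, was 20.9, 21.9 and 27.7 FPKM in AngII+ETH, 17.6, 21.1 and 32.0 in AngII and 12.7, 16.5 and 22.9 in saline. Its log2 fold changes were 0.41 (SE 0.151) in AngII and 0.48 (SE 0.151) in AngII+ETH against saline. They were 0.25 and 0.32 without saline replicates 4 and 6, and the AngII value was 0.16 with both covariates. Bag4, a silencer of death receptors, was 1.13, 1.45 and 1.81 FPKM in AngII+ETH, 1.13, 1.43 and 1.69 in AngII and 1.38, 2.06 and 4.14 in saline. Its 2 highest libraries were saline replicates 6 and 4, and both log2 fold changes against saline were -0.47 (SE 0.167), or -0.20 without these replicates, and with both covariates they were -0.096 in AngII and -0.22 in AngII+ETH. Bag6 is listed through different transcripts in the lists of the files, so its level, 0.457 to 2.39 FPKM over the common ones, covers only some of them. It is 1 of 4 members with a transcript in only 1 of the lists, whose levels all cover the common transcripts only.

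Short stretches with a heat shock element pair are printed for the Bag3 and Hspb8 partners and for Hsph1, from RefSeq GRCm38.p6. Capitals mark GAANNTTC, and in Hsph1 a TTCNNGAA pair that overlaps the pair after it. Unlike those printed above, these begin after the start, by 42 bases in Bag3, 2 in Hspb8 and 36 in Hsph1. Bag3 is at chr7:128523603-128523632 on the plus strand, Hspb8 at chr5:116422844-116422873 on the minus strand and Hsph1 at chr5:149636287-149636316 on the minus strand.
Bag3: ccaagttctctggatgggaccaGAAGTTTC
Hspb8: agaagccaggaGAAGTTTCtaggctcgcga
Hsph1: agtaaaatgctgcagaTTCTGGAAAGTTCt

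Promoter windows of 300 bases, 250 before to 50 after the start, were in the RefSeq table for 57 of 73 members. On both strands GAANNTTC was found in 14 of 57 (24.6%), against 9.04% of all 27025 genes. The longer motif in which GAANNTTC runs on into NNGAA was found in 4 (7.02%), Dnajb6, Hspd1, Hspe1 and Hsph1, against 0.662% of all genes. TTCNNGAA, which the longer motif contains too, was found in 6 (10.5%), against 9.6%. Hspd1 and Hspe1, which share a promoter, are counted as separate members for each motif. The near-identical Hspa1a and Hspa1b are both counted for GAANNTTC, so the matches are not all separate occurrences. A match is a run of letters and not a measured binding site. Of the members with GAANNTTC, Hspb1, Hspb6, Hspb8, Bag3 and Dnaja4 had an unadjusted p under 0.05 with a fold change above 0 in AngII against saline, and Hspd1 one below 0. The other 8 with it had no such p. Of the members without it in their window, Hspb7, Bag2, Dnaja2, Dnajb2 and Dnajb5 had an unadjusted p under 0.05 above 0 too. Such members thus numbered 5 of the 14 with the motif and 5 of the rest of the 57. The rest are more numerous, so the equal counts are not equal shares, and the difference was not tested.

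Some libraries held many of the extreme member values. AngII replicate 5 was the highest library for 24 of 71 members (33.8%), against 14.3% of all tested genes, among them Hspb1, Hspa8, Hspa1a, Hspa1b, Hsp90aa1, Dnajb4 and Dnajb5. Saline replicate 6 was the lowest library for 13 members (18.3%), against 5.95% of all tested genes, among them Cryab, Hspb6, Hspb7, Hspb8 and Bag3. Saline replicate 5 was lowest for another 13 (18.3%), against 18.4% of all genes. These 3 libraries are among the 5 with a chamber marker under 10 FPKM, whose part in these values was not tested. The level of atrial markers minus that of ventricular markers was -0.717 ± 4.52 log2 units in AngII+ETH, 0.157 ± 5.41 in AngII and 1.20 ± 5.65 in saline (SD, n = 6 each). In exact two-sided permutation tests p was 0.688 for AngII against saline, and 0.825 and 0.485 for AngII+ETH against AngII and against saline, and the lowest adjusted p was 0.727 over 6 tests.

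**Figure D4:**
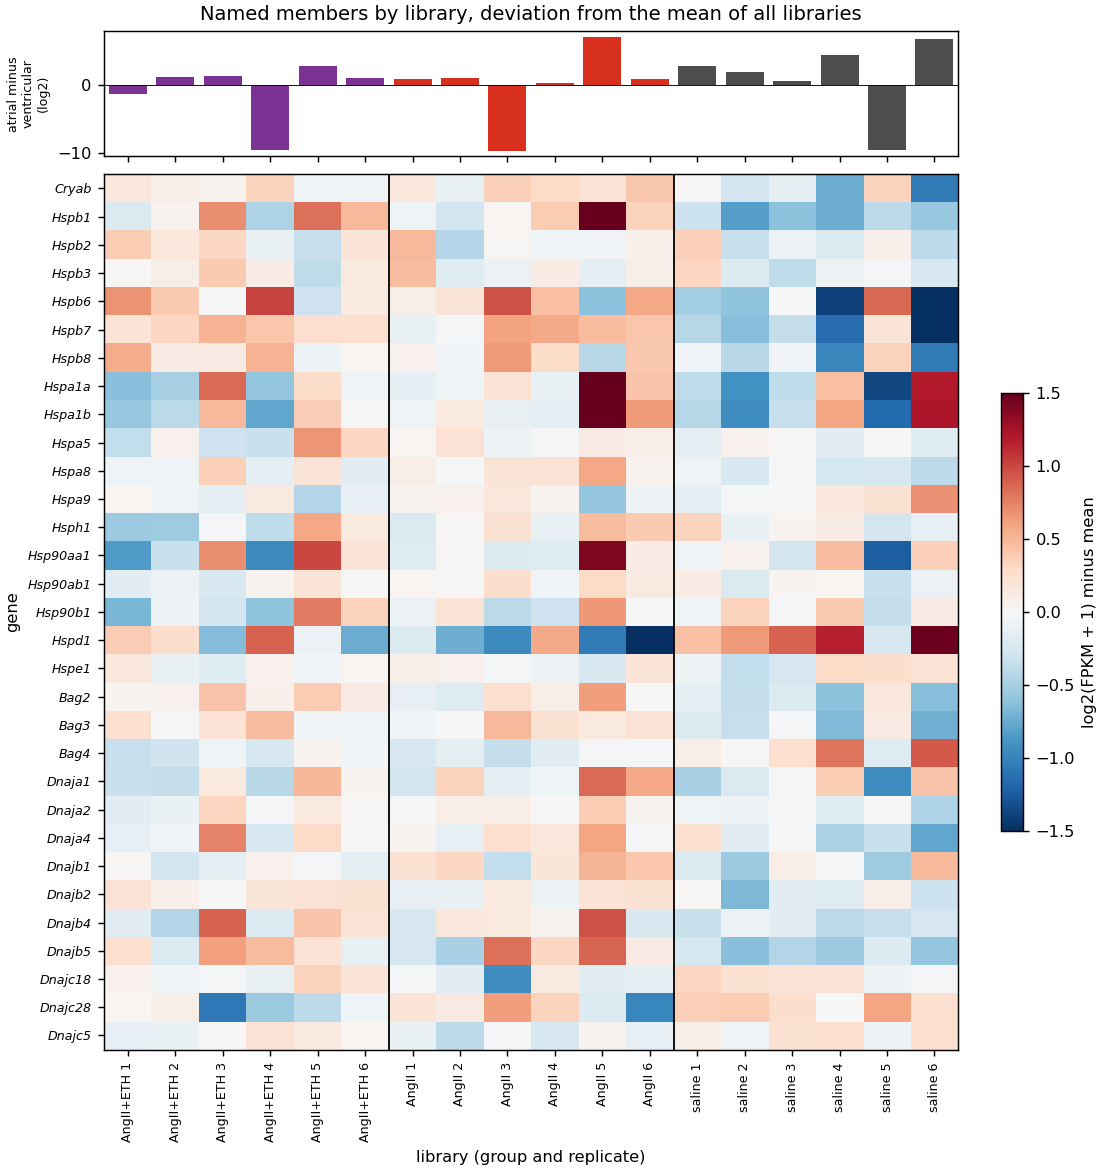
Deviation of log2(FPKM + 1) from the mean of all libraries (colour) for 31 named members (vertical axis) in each library of AngII+ETH, AngII and saline (horizontal axis), with the atrial minus ventricular marker level above (bars, log2 units). AngII replicate 5, at 7.12 on the marker level, has high Hspa1a, Hspa1b and Hsp90aa1, and saline replicates 4 and 6 have low Hspb6, Hspb7 and Hspb8.

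Without the 5 libraries with a chamber marker under 10 FPKM, 8 members lay higher and 6 lower at an unadjusted p under 0.05 in AngII against saline, beside 425 and 978 of all 11828 genes tested. Without saline replicates 4 and 6, 9 lay higher and 2 lower, beside 347 and 215 of 11577 genes, and in AngII+ETH against saline 4 and 1, beside 481 and 216. The chamber covariate gave 18 and 4 members in AngII against saline, beside 509 and 868 of 11703 genes, and the chamber and adipocyte covariates together gave 7 and 1, beside 270 and 264. None of these settings brought a member past the adjusted threshold. Of the 7 small heat shock genes named above (all but Hspb11), 7 had a log2 fold change above 0 in AngII against saline under both scaling choices and without either set of libraries, and 6 with both covariates. Their median was 0.53 in the reported fit, 0.59 and 0.53 after median-of-ratios scaling and quantile normalization and 0.54 without the 5 libraries. It was 0.24 without saline replicates 4 and 6 and 0.15 with both covariates. Hspb11, not counted here, was at -0.50 in the reported fit.

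In AngII+ETH against AngII these genes differed little beside their spread. Hspb7 had a log2 fold change of 0.005 (SE 0.222, 95% interval -0.46 to 0.47), Hspb1 of -0.12 (SE 0.279, -0.71 to 0.47), Bag3 of -0.04 (SE 0.145, -0.35 to 0.26) and Hspa8 of -0.17 (SE 0.121, -0.42 to 0.09). Hspd1, at 0.74, had an interval of -0.06 to 1.54. Without AngII replicate 5 Hspb1 was at 0.15 and Hspa8 at -0.086, and without the 5 libraries with a chamber marker under 10 FPKM they were at 0.27 and -0.032. All 3 HSP90 and all 3 HSP110 genes were below 0, as were 8 of 11 HSP70 genes, with medians of -0.16, -0.11 and -0.11. For each of these HSP90 and HSP110 genes AngII replicate 5 was the highest AngII library. Hsp90aa1 was 74.1 FPKM there against 23.7 to 29.9 in the other AngII libraries, Hspa4 36.8 against 24.8 to 29.2 and Hsph1 13.3 against 7.88 to 12.5. The class counts were not taken without that library. The HSP90 and HSP110 counts were the same after median-of-ratios scaling and quantile normalization, and HSP70 genes below 0 then numbered 8 and 10. None passed, and a p above the threshold does not show that ETH had no effect on these genes.

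Genes of the wider chaperone network were examined from lists, and no gene of them passed the adjusted threshold in any comparison. Of 4 tested heat shock factors and regulators none had an unadjusted p under 0.05. Hsf1, the main heat shock factor, was 5.54 to 9.72 FPKM in AngII+ETH, 2.68 to 6.33 in AngII and 3.75 to 7.06 in saline. Of 23 tested co-factors of HSP70 and HSP90, 14 had a log2 fold change above 0 in AngII against saline (median 0.02) and 1 an unadjusted p under 0.05. The 8 subunits of the TRiC chaperonin, which folds actin and tubulin, were above 0 in 1 case (median -0.06). Of 22 genes of the endoplasmic reticulum response 7 were above 0 (median -0.09), with 2 higher and 1 lower at an unadjusted p under 0.05. Prefoldin subunits were above 0 in 3 of 6, and autophagy and disaggregation partners in 6 of 8. Over all tested genes 39.2% were above 0 in that comparison, with a median of -0.06.

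The 6 sarcomere partners of the small heat shock proteins were above 0 in 5 in AngII against saline, with a median of 0.41. Des, which encodes the desmin that Cryab binds, lay at a log2 fold change of 1.03 (limma adjusted p = 0.347) in AngII against saline and 0.88 (limma adjusted p = 0.406) in AngII+ETH against saline. Flnc, the filamin that Hspb7 and Bag3 bind, was 39.8 to 98.8 FPKM in AngII+ETH, 39.8 to 152 in AngII and 25.0 to 46.6 in saline. Its log2 fold change was 0.80 (SE 0.287) in AngII and 0.81 (SE 0.287) in AngII+ETH against saline, and it did not pass in either. The highest AngII value of Flnc was that of replicate 5, beside 39.8 to 65.8 FPKM in the other AngII libraries.

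The other 40 members listed in all libraries had mean levels of 1.38 FPKM (Bag6) to 123 FPKM (Bag1, a nucleotide release factor of HSP70). In AngII against saline 18 of them had a log2 fold change above 0, and the values ran from -0.50 in Hspb11 to 0.56 in Hspa1l, an HSP70 gene known for its expression in testis. In AngII+ETH against AngII 16 were above 0, with a range of -0.43 in Hspd1-ps3 to 0.24 in Hspa2. Members with an unadjusted p under 0.05 were named by rule, so the 40 hold none.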

How the data were processed

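Ribosomal RNA was removed from total cardiac RNA, and NEB kits were used for the libraries, per the labels' protocols. The deposited files give 1 value per transcript and library, taken here as FPKM as the authors computed it. No file names its unit. Weighted by length, values summed to 63.6 to 74.9% of the limit for FPKM. Per the submitters' processing notes limma was used. Aligner, assembler, strand setting, genome build: not given in the sources used here.

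Of 28886 transcripts common to both lists (30036 for AngII+ETH, 30883 for AngII and saline), 8239 are unnamed assembled ones that held 10.4 to 15.7% of the sum and were left out. Of the other 20647, 20478 matched GENCODE M21, giving 12911 genes by summing. Those at a mean of 1 FPKM or above in some group entered limma 3.58.1 in R 4.3.3 (intensity trend, log2(FPKM + 1), all 18 libraries, Benjamini-Hochberg adjustment over 11703 genes, threshold 0.05). The scale understates changes of low genes. The fit was tested on simulated data. Chamber and adipocyte marker levels were compared with exact permutation tests over all 924 assignments of 12 libraries. Python 3.11.15, pandas 2.3.3, scipy 1.17.1 and matplotlib 3.10.9 were used. Pearson r between replicates across genes was 0.878 to 0.971 (log2).

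Members and lists were chosen with earlier results of these data known. Of the members, 23 were named whatever their result, and 8 more because they had an unadjusted p under 0.05 in a comparison. Alternatives covered the pseudocount (0.1), filter, scaling, trend, weights, groups in the fit, transcripts summed, covariates and libraries left out. The fit without saline replicates 4 and 6 was added after the data had been seen. Replicate numbers follow accession order and pair nothing.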

Additional observations from a re-analysis of the deposited data

Results flagged for a closer look

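In 93 sets of 6 libraries, 1 for each named member in each group, the library farthest out was compared with the others by its gap. In 9 sets the gap was over 0.625 of the whole range, where chance gives about 1 in 20. Of these, 8 were in AngII replicate 5, the AngII library with Myl2 at 3.37 FPKM, and 7 of the 8 were high values. Hspb1 was 759 FPKM there against 197 to 312 in the other AngII libraries, Hspa8 was 744 against 487 to 577, and Hsp90aa1 was 74.1 against 23.7 to 29.9. Hspa1a was 14.2 FPKM against 3.29 to 5.33 and Hspa1b 12.9 against 3.47 to 6.67; their near-identical sequences leave the split of reads uncertain. Dnajb4 was 50.9 FPKM against 21.5 to 29.1 and Dnaja2 79.1 against 59.6 to 64.9. Hspa9, the mitochondrial HSP70, was low there, at 109 FPKM against 158 to 187. In AngII replicate 3, with Myl7 at 0, Dnajc18 was 2.43 FPKM against 4.86 to 6.21. The same gaps were not counted over all tested genes, for 14.3% of which AngII replicate 5 was the highest of all libraries. Genes of 1 library are not independent of each other, so the flags of AngII replicate 5 are not 8 separate events. The part of chamber makeup in these values was not tested.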

How the results depend on the processing

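No paired analysis was possible because the replicate numbers were given in accession order and the labels tie no libraries together. Members past the threshold numbered 0 under all 12 other settings and 0 to 1, 0 to 0 and 0 to 1 with each library left out (AngII against saline, AngII+ETH against AngII, AngII+ETH against saline). The 1 was Hspb7 without saline replicate 5, with log2 fold changes of 1.13 and 1.14, where 11 and 8 of all genes passed. Of 50 member fold changes followed, 38 kept their sign under all 30 settings: 17 of 19, 8 of 18 and 13 of 13 in the same order. Of those followed, 16, 0 and 11 had an unadjusted p under 0.05 in their comparison. That choice from these data favours values far from 0, so the counts are no independent measure of stability.

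Genes past the threshold in AngII against saline, 1 in the reported fit, numbered 2 with median-of-ratios scaling, with quantile normalization, without the 5 libraries in which a chamber marker was under 10 FPKM and without saline replicates 4 and 6, 3 with array quality weights, 5 with the chamber covariate, 0 with both covariates and 0 with only the 2 groups, and 0 to 11 with each library left out. In AngII+ETH against AngII they numbered 1 without the 5 libraries. In AngII+ETH against saline, 1 in the reported fit, they numbered 4 with quality weights, 0 with only the 2 groups, 21 with all transcripts of each file, 2 with both covariates, 2 without the 5 libraries, 2 without saline replicates 4 and 6, and 0 to 8 with each library left out. With all transcripts the lists differ between groups by construction; the cause of the other shifts was not tested.

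In AngII against saline, Hsp90aa1 turned to -0.11 without the 5 libraries. Hspe1 turned to 0.049 with median-of-ratios scaling, 0.0067 with quantile normalization, 0.13 with weights, 0.075 with both covariates, 0.17 without the 5 libraries and 0.11 without saline replicates 4 and 6, and ran from -0.086 to 0.045 with each library left out. In AngII+ETH against AngII, the fit without the 5 libraries turned Bag4 to 0.0033, Dnaja2 to 0.019, Dnaja4 to 0.16, Dnajb5 to 0.23, Hspb1 to 0.27, Hspb6 to -0.15 and Hspb8 to -0.025. Weights turned Dnaja4 to 0.015, Dnajb5 to 0.010, Hspb1 to 0.066, Hspb6 to -0.052 and Hspb8 to -0.027. Both covariates turned Cryab to 0.020, Dnaja4 to 0.061 and Hspb1 to 0.053, and the chamber covariate turned Bag4 to 0.030, Hspb6 to -0.061 and Hspb7 to -0.034. Hspb7 was at -0.016 with median-of-ratios scaling and -0.0032 with quantile normalization. With each library left out the ranges were -0.11 to 0.023 for Bag3, -0.042 to 0.038 for Bag4, -0.17 to 0.048 for Dnaja4, -0.17 to 0.10 for Dnajb5, -0.24 to 0.15 for Hspb1, -0.14 to 0.18 for Hspb6, -0.081 to 0.062 for Hspb7 and -0.055 to 0.16 for Hspb8. Depth is unknown, so how far it limits the low genes cannot be given.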
